A study of Mus musculus with 25 samples.

Results

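The data set comprised RNA counts from 25 mouse hearts, and the genes described here were 10 of the 56941 genes in the table: Fkbp5, Tsc22d3, Zbtb16, Sgk1, Klf9, Errfi1 and Cdkn1a, which are known to respond to glucocorticoids in at least some tissues, the metallothionein genes Mt1 and Mt2, and Nr3c1, which encodes the glucocorticoid receptor. They were taken by gene symbol, all 10 were matched to a row of the table, and all 10 passed the filter on low counts along with 17682 genes in all. The hearts were labelled WT or MCT1KO, MCT1 being the lactate transporter encoded by Slc16a1. Each genotype had hearts from mice with no pump (4 WT and 3 MCT1KO), a saline pump (6 WT and 4 MCT1KO) or Ang/PE, neurohormonal agonists that the submitters used to cause hypertrophy of the heart (3 WT and 5 MCT1KO). Strain, age, sex, dose, duration, the time of day at collection and the cells in which the transporter was deleted are not given in the labels. The stated question of the study is the part of lactate metabolism in hypertrophy, and each group of hearts was compared with the others of its genotype and with the same treatment in the other genotype.

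Glucocorticoids enter cells and bind the receptor Nr3c1, which is held by heat shock chaperones, moves to the nucleus and binds paired AGAACA-like repeats in DNA. In the heart, as in most tissues, this switches on feedback and effector genes: Fkbp5 encodes a co-chaperone that lowers the hormone affinity of the receptor, Tsc22d3 encodes the leucine zipper protein GILZ, and Zbtb16 and Klf9 encode zinc finger transcription factors. Metallothioneins are small cysteine-rich proteins that bind zinc and copper, and their genes are induced both by metals, through the factor Mtf1, and by glucocorticoids. Sgk1, Errfi1 and Cdkn1a are also driven by other signals, among them growth factors for Errfi1 and p53 for Cdkn1a.

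The libraries held between 12216704 and 24880683 counts. Slc16a1 was not lower in the libraries labelled MCT1KO by the test: it averaged 203 ± 36.8 CPM in WT and 199.8 ± 29.6 in MCT1KO hearts without a pump, 199 ± 29.9 and 158 ± 26.0 with saline, and 214 ± 10.6 and 189.8 ± 21.9 with Ang/PE (SD, n as above; edgeR adjusted p from 0.219 to 0.976), so whether those hearts lack the transporter cannot be told from these counts. CPM is the count per 1000000 library counts after scaling for library composition. Xist RNA, which marks female cells, was detected in 13 hearts, with a lowest level of 548 CPM, and did not exceed 0.54 CPM in the other 12. The hearts with Xist were 2 of 4 WT and 0 of 3 MCT1KO without a pump, 1 of 6 WT and 3 of 4 MCT1KO with saline, and 3 of 3 WT and 4 of 5 MCT1KO with Ang/PE. The 3 atrial markers (Myl4, Myl7 and Sln) summed to at most 5.73 CPM in every heart without a saline pump, to between 2.03 and 1136 CPM in WT saline hearts and to between 1.4996 and 3679 CPM in MCT1KO saline hearts. The 5 fat markers summed to between 11.8 and 18.3 CPM outside the saline groups, 13.4 to 52.98 in WT saline and 12.1 to 1459 in MCT1KO saline hearts; the 3 skeletal muscle markers were at or near 0 in every group, and ventricular markers summed to at least 24389 CPM in every heart. Atrial and fat markers thus moved with the saline groups and Xist with the treatments, and 32 of the differences below were refitted with them, or a score of clock genes, as covariates. Where such a value ended a call or differed by over 1.5 times, it or the most different refit is given. The side lists and the other differences were not refitted. In whole hearts fewer cells of a type cannot be told apart from less RNA per cell.

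The 10 genes differed widely in how much they varied. Over the 25 hearts the ratio of the highest to the lowest CPM was 31.6 for Mt2, 16.1 for Cdkn1a, 12.5 for Fkbp5, 6.19 for Zbtb16, 4.71 for Errfi1, 4.33 for Mt1, 3.80 for Tsc22d3, 3.03 for Sgk1 and 2.43 for Klf9. The receptor gene Nr3c1 was the steadiest, at 1.41. Per kilobase of exon the mean level was highest for Mt1, at 46.5 ± 22.3 RPKM (CPM per kilobase of exon, SD over 25 hearts), and Zbtb16, at 45.3 ± 29.4, and lowest for Fkbp5, at 6.34 ± 5.78, with Nr3c1 at 16.5 ± 1.53. The spreads of Mt1 and Zbtb16 overlap, so the order of these 2 is not resolved.

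**Figure D1:**
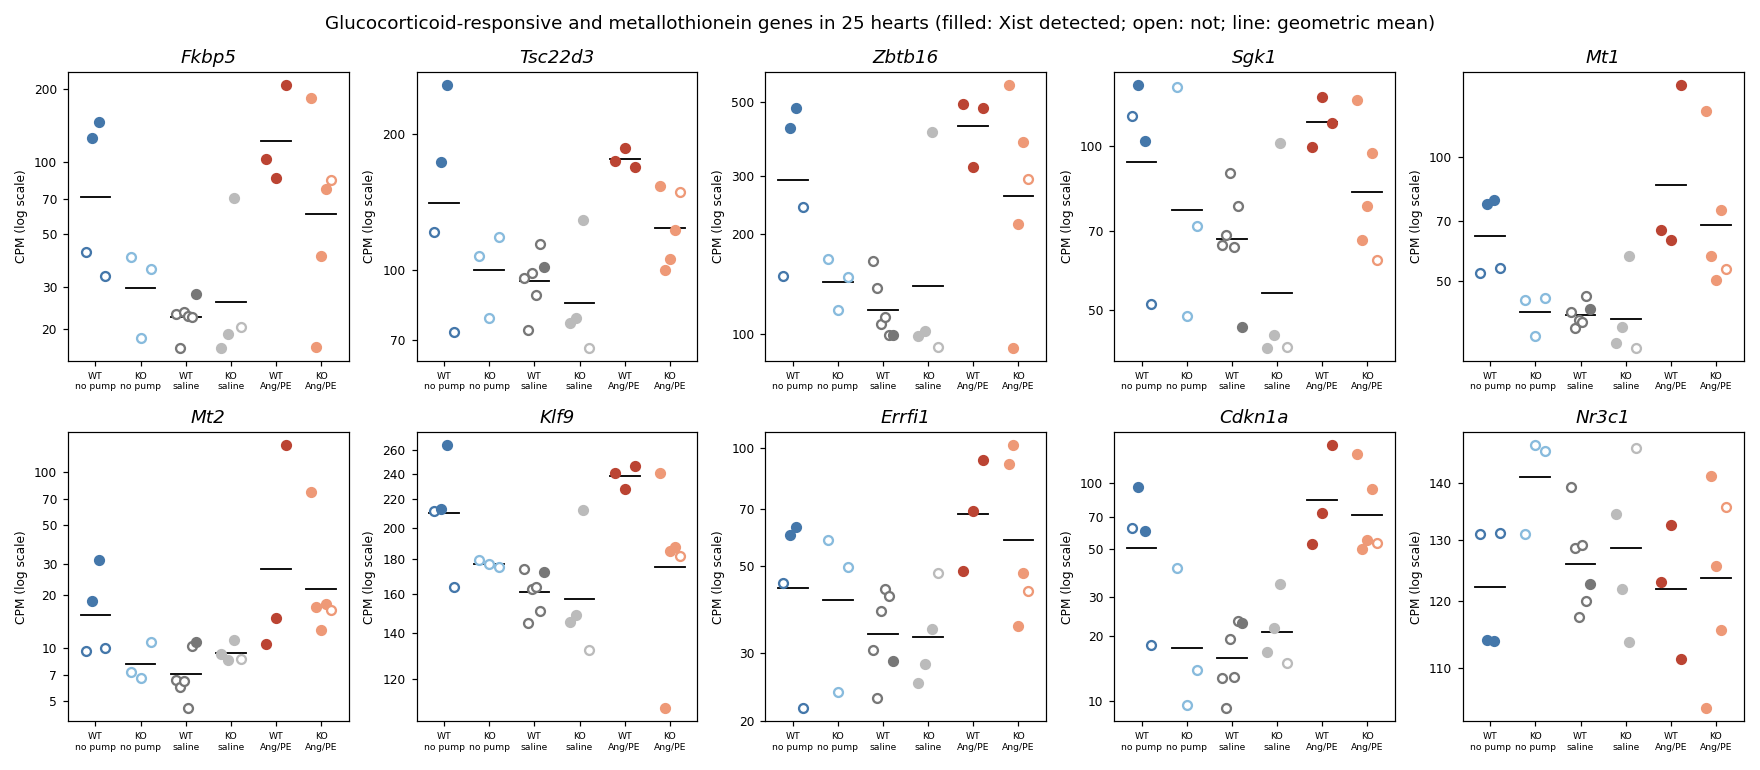
CPM on a log axis for each of the 10 genes, by group; each point is 1 of the 25 hearts, filled where Xist was detected, and lines are geometric means. The WT saline hearts sit low for Fkbp5, Mt1 and Cdkn1a, and close together for Fkbp5 and Mt1. Replicate 3 of the MCT1KO saline group sits above the other 3 for Fkbp5, Zbtb16 and Sgk1.

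Fkbp5 (ENSMUSG00000024222), the co-chaperone gene, was lowest in saline and highest in Ang/PE hearts by mean level in WT. WT hearts without a pump held 41.9, 126, 146 and 33.2 CPM, WT saline hearts ran from 16.7 through a median of 22.8 to 28.0 CPM, and WT Ang/PE hearts held 102, 85.0 and 208 CPM. The WT saline hearts lay below every heart of both other WT groups. MCT1KO hearts held 40.0, 18.3 and 35.8 CPM without a pump, 16.7, 19.1, 70.6 and 20.3 CPM with saline, and 183, 16.9, 40.4, 76.6 and 84.1 CPM with Ang/PE. These 3 MCT1KO groups overlapped: the third saline heart stood high and the second Ang/PE heart as low as the saline hearts.

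The WT drop in Fkbp5 from no pump to saline passed the test. It fell by 1.93 on the log2 scale (SE 0.55, 95% interval -3.07 to -0.78, edgeR quasi-likelihood adjusted p = 0.0418), with all 6 saline hearts below all 4 others. Leaving out any of 9 of the 10 hearts, all but the first WT heart without a pump, took the adjusted p above 0.05, to 0.0557 up to 0.173. Both WT hearts without a pump that held Xist were the high ones, at 126 and 146 CPM; over the hearts without Xist alone the log2 change was -0.81 (adjusted p = 0.19), with atrial and fat markers as covariates -1.17 (adjusted p = 0.726), with Xist as covariate -1.46 (adjusted p = 0.159) and with the clock score -2.001 (adjusted p = 0.0843). In the opposite direction, the WT Ang/PE level was 5.78 times that of saline (log2 2.53, SE 0.58) and missed the threshold (adjusted p = 0.0596). In MCT1KO hearts the log2 difference between Ang/PE and saline was 1.34 (SE 0.59, adjusted p = 0.207), 2.09 (adjusted p = 0.0434) without the third saline heart, 0.78 (adjusted p = 0.51) without the first Ang/PE heart and 0.85 (adjusted p = 0.824) with atrial and fat markers as covariates.

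Tsc22d3 (ENSMUSG00000031431) and Zbtb16 (ENSMUSG00000066687) followed the order of Fkbp5 by mean level in WT hearts without passing the test. For Zbtb16 the WT hearts held 150.2, 418, 479 and 241 CPM without a pump, 99.2 through a median of 109.99 to 166 CPM with saline, and 494, 319.9 and 481 CPM with Ang/PE. MCT1KO hearts held 168, 118 and 149 CPM without a pump, 98.7, 102, 407 and 91.8 CPM with saline, and 563, 90.9, 214, 379 and 293 CPM with Ang/PE. All 3 WT Ang/PE hearts lay above all WT saline hearts, while in the MCT1KO groups the third saline heart reached the Ang/PE range and the second Ang/PE heart fell below every saline heart. The Zbtb16 log2 difference between Ang/PE and saline was 1.84 (SE 0.47, adjusted p = 0.0721) in WT and 0.82 (SE 0.47, adjusted p = 0.344) in MCT1KO hearts. That between WT saline and no pump was -1.42 (SE 0.44, adjusted p = 0.0563). With atrial and fat markers as covariates the WT differences were 0.87 (adjusted p = 0.831) for Ang/PE against saline and -0.39 for saline against no pump, and over hearts without Xist the latter was -0.67. It was -1.66 (adjusted p = 0.0228) without the first WT heart without a pump.

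For Tsc22d3, WT hearts held 121, 173, 256 and 73.1 CPM without a pump, 73.7 through a median of 97.3 to 114 CPM with saline, and 174, 186 and 169 CPM with Ang/PE. The WT log2 difference between saline and no pump was -0.71 (SE 0.24, edgeR adjusted p = 0.074), but -0.07 over hearts without Xist. The WT hearts without a pump that held Xist were those at 173 and 256 CPM. It was -0.36 without the third and -0.94 without the fourth WT heart without a pump. MCT1KO hearts held 108, 78.4 and 119 CPM without a pump, 76.3, 78.3, 129 and 67.4 CPM with saline, and 153, 99.9, 106, 122 and 149 CPM with Ang/PE. The WT Ang/PE hearts were tightly grouped and all above WT saline (log2 0.89, SE 0.26, adjusted p = 0.0879; 0.55 with Xist as covariate, adjusted p = 0.43), and also all above the MCT1KO Ang/PE hearts, a difference of -0.48 that did not pass (SE 0.27, adjusted p = 0.741).

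Klf9 (ENSMUSG00000033863) gave the smallest differences of the 9 responsive genes between Ang/PE and saline. It held 240.3, 228 and 246 CPM in WT Ang/PE hearts against 145 through 163 to 174 CPM in WT saline hearts, which do not overlap (log2 0.56, SE 0.17, adjusted p = 0.0879; 0.36 with atrial and fat markers as covariates, adjusted p = 0.831). In MCT1KO hearts it held 241, 109, 185, 187 and 182 CPM with Ang/PE against 145, 149, 212 and 132 CPM with saline (log2 0.18, SE 0.16, adjusted p = 0.57). Hearts without a pump held 211, 213, 264 and 164 CPM in WT and 179, 177 and 175 CPM in MCT1KO. The WT log2 difference between saline and no pump was -0.40 (SE 0.15, edgeR adjusted p = 0.105). It was -0.19 with atrial and fat markers as covariates. The second MCT1KO Ang/PE heart was the lowest of all 25.

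Sgk1 (ENSMUSG00000019970), a kinase that regulates ion channels and transporters, is of interest for its sequence. RefSeq GRCm38.p6 promoter windows (250 bases before to 50 after a start site) were examined for 8 of the 10 genes. Windows of Zbtb16 and Nr3c1 were not examined. The full palindrome, AGAACA and TGTTCT with 3 bases between, searched on both strands, is held by 3 of 32851 mouse windows (0.009%). Among the windows examined for the 8 genes, only a Sgk1 window held it. That window, chr10:21993640-21993939 on the plus strand, is shown with AGAACA or its complement TGTTCT in capitals; the palindrome lies at -189 to -175 from the start site. At least 1 AGAACA on either strand was found in 18.97% of all windows.
Sgk1: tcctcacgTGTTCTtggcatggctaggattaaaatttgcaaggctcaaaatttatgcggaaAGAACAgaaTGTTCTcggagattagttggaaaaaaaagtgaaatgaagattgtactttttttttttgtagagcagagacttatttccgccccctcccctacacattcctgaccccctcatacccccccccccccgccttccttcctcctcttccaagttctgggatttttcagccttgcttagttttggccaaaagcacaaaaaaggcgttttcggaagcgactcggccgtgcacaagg
The first capital run shares letters with a CACGTG E-box at -246 to -241. The printed window is 1 of 6 for Sgk1, and the counts are per gene, so they do not say which start was used.

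Sgk1 was called in no comparison. WT hearts held 113, 129, 102 and 51.5 CPM without a pump, 46.5 through a median of 67.2 to 89.2 CPM with saline, and 99.7, 123 and 110.2 CPM with Ang/PE. MCT1KO hearts held 128, 48.9 and 71.5 CPM without a pump, 42.7, 45.02, 101 and 42.9 CPM with saline, and 121, 67.2, 77.8, 96.9 and 62.0 CPM with Ang/PE. The WT Ang/PE hearts lay above the WT saline hearts (log2 0.69, SE 0.32, adjusted p = 0.244; 0.44 with Xist, 0.45 with atrial and fat markers and 0.41 with the clock score as covariate), and the groups overlapped in the other comparisons. The third MCT1KO saline heart, at 101 CPM, stood apart from the other 3 of its group.

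Mt1 (ENSMUSG00000031765) and Mt2 (ENSMUSG00000031762) lie next to each other on chromosome 8, with start sites 6471 bases apart. Their promoter windows are shown because both carry repeats of the core of the metal response element bound by Mtf1 (TGCACNC or TGCGCNC, either strand, in capitals): 4 matches for Mt2 at chr8:94172368-94172667 and 3 for Mt1 at chr8:94178839-94179138, both on the plus strand of GRCm38.p6. At least 1 match was present in 25.7% of the 32851 windows and at least 4 in 0.517%. Neither window held AGAACA.
Mt2: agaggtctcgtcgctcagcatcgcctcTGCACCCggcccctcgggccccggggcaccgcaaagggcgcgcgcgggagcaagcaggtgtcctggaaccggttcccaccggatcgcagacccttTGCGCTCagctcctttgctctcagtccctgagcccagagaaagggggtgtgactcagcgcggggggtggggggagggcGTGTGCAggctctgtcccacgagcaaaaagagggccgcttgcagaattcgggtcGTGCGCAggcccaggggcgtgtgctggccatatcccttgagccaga
Mt1: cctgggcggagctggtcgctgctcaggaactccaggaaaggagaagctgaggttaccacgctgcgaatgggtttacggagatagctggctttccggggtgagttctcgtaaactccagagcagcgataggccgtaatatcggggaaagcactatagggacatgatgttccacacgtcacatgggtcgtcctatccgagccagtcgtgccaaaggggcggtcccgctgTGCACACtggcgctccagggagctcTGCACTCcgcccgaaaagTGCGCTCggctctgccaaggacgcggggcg

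Mt2 was the most variable of the 10 genes, through single hearts. WT hearts held 9.52, 18.5, 31.4 and 9.97 CPM without a pump, 4.51 through a median of 6.48 to 10.8 CPM with saline, and 10.6, 14.7 and 143 CPM with Ang/PE. MCT1KO hearts held 7.26, 6.73 and 10.8 CPM without a pump, 9.19, 8.51, 10.997 and 8.67 CPM with saline, and 77.3, 16.97, 12.6, 17.7 and 16.4 CPM with Ang/PE. The third WT Ang/PE heart and the first MCT1KO Ang/PE heart stood far above the rest, and the MCT1KO Ang/PE hearts all lay above those of both other MCT1KO groups. The WT log2 difference between Ang/PE and saline was 2.91 (SE 0.65, adjusted p = 0.0596), but 0.78 (adjusted p = 0.74) without that WT heart and 3.40 (adjusted p = 0.0263) and 3.36 (adjusted p = 0.0498) without the first and the second, and the MCT1KO difference of 1.58 (SE 0.68, adjusted p = 0.188) was 0.76 without that MCT1KO heart.

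Mt1 moved with Mt2 over a narrower range. WT hearts held 52.2, 76.9, 78.8 and 53.9 CPM without a pump, 38.6 through a median of 41.2 to 46.1 CPM with saline, and 66.5, 62.8 and 149 CPM with Ang/PE. MCT1KO hearts held 44.9, 36.8 and 45.5 CPM without a pump, 35.4, 38.7, 57.4 and 34.4 CPM with saline, and 129, 57.7, 50.3, 74.3 and 53.4 CPM with Ang/PE. WT saline hearts lay below both other WT groups, and all MCT1KO hearts without a pump lay below the WT hearts without one. The WT log2 difference between saline and no pump was -0.65 (SE 0.25, edgeR adjusted p = 0.11). It was -0.38 with atrial and fat markers as covariates. The log2 difference between Ang/PE and saline was 1.157 (SE 0.27, adjusted p = 0.0596) in WT and 0.81 (SE 0.27, adjusted p = 0.0846) in MCT1KO hearts; without the third WT Ang/PE heart the first was 0.65 (adjusted p = 0.58), and without the first WT Ang/PE heart 1.35 (adjusted p = 0.0381). The second was 1.00 (adjusted p = 0.0337) without the third MCT1KO saline heart and 0.50 (adjusted p = 0.25) without the first MCT1KO Ang/PE heart.

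Errfi1 (ENSMUSG00000028967), which encodes an inhibitor of the EGF receptor family, overlapped between most groups. It held 48.5, 69.1 and 93.2 CPM in WT Ang/PE hearts against 23.01 through 34.4 to 43.7 CPM in WT saline hearts (log2 1.03, SE 0.36, adjusted p = 0.14). In MCT1KO hearts it held 91.0, 102, 35.2, 47.8 and 43.2 CPM with Ang/PE and 25.0, 28.0, 34.5 and 48.0 CPM with saline (log2 0.91, SE 0.36, adjusted p = 0.154; 0.27 with the clock score as covariate, adjusted p = 0.911). Without a pump it held 45.3, 59.9, 62.9 and 21.6 CPM in WT and 58.2, 23.7 and 49.8 CPM in MCT1KO hearts, spreads that covered the saline range.

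Cdkn1a (ENSMUSG00000023067), which encodes the cyclin-dependent kinase inhibitor p21, was the only one of the 10 genes with a call in each genotype, in different comparisons. WT hearts held 62.4, 95.8, 60.1 and 18.2 CPM without a pump, 9.28 through a median of 16.1 to 23.3 CPM with saline, and 52.8, 73.3 and 149 CPM with Ang/PE. MCT1KO hearts held 41.0, 9.60 and 13.9 CPM without a pump, 16.9, 21.7, 34.4 and 14.98 CPM with saline, and 136, 49.7, 54.9, 94.1 and 53.3 CPM with Ang/PE. Every Ang/PE heart lay above every saline heart of its genotype.

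In MCT1KO hearts Cdkn1a rose with Ang/PE against saline, from a mean of 21.96 ± 8.73 (SD, n = 4) to 77.6 ± 37.4 CPM (n = 5), a log2 change of 1.82 (SE 0.50, edgeR adjusted p = 0.0443). The call was lost without any of 7 of the 9 hearts (all but saline replicate 3 and Ang/PE replicate 2; adjusted p 0.0535 to 0.196), and the log2 change was 0.92 (adjusted p = 0.716) with a score of clock genes as covariate and 1.52 (adjusted p = 0.67) with atrial and fat markers. In WT hearts it fell by 1.82 on the log2 scale from no pump to saline (SE 0.46, edgeR adjusted p = 0.0261), with the fourth heart without a pump inside the saline range; the call was lost without replicate 2 or 3 of the hearts without a pump or replicate 2 or 4 of the saline hearts (adjusted p 0.0527 to 0.098), and the log2 change was -1.40 (adjusted p = 0.385) over hearts without Xist, -1.48 with Xist (adjusted p = 0.0745) or the clock score (adjusted p = 0.102) as covariate and -1.92 (adjusted p = 0.596) with atrial and fat markers. The WT difference between Ang/PE and saline was 2.45 (SE 0.49, adjusted p = 0.0503), at the edge of the threshold (2.73, adjusted p = 0.0275, without the first Ang/PE heart).

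Nr3c1 (ENSMUSG00000024431), the receptor itself, was called in no comparison. WT hearts held 131, 114, 114 and 131 CPM without a pump, 118 through a median of 126 to 139 CPM with saline, and 123, 132 and 111 CPM with Ang/PE. MCT1KO hearts held 131, 147 and 146 CPM without a pump, 134, 122, 114 and 146 CPM with saline, and 104, 141, 126, 116 and 136 CPM with Ang/PE. The groups overlapped throughout, and the interval of the log2 difference between Ang/PE and saline was -0.24 to 0.15 in WT and -0.24 to 0.14 in MCT1KO hearts.

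Counted together, the 10 genes shifted most between Ang/PE and saline in WT hearts. None was called there by edgeR (3 of 17682 genes were, 0.017%), 9 of 10 were higher at an unadjusted p below 0.05 (9.47% of all genes), and 8 were higher in all 3 Ang/PE hearts than in all 6 saline hearts (6.39% of all genes). DESeq2 called 7. Over the alternative fits, leave-one-out fits aside, calls among all tested genes ranged from 0 to 945. The median log2 difference of the 10 genes was 1.09, against -0.01 over all genes. In MCT1KO hearts 1 was called higher (1.75% of all genes), 5 were higher at an unadjusted p below 0.05 (9.4%), 2 (Mt2 and Cdkn1a) were higher in all Ang/PE than in all saline hearts (3.06%) and the median was 0.81. The test of the difference between genotypes in this response called none of the 10 (0% of all genes; 0 by DESeq2, and 0 at an unadjusted p below 0.05 against 13.5% of all genes), so the larger values in WT are not shown to differ from those in MCT1KO hearts; the interaction was -1.19 (SE 0.83, adjusted p = 0.531) for Fkbp5.

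**Figure D2:**
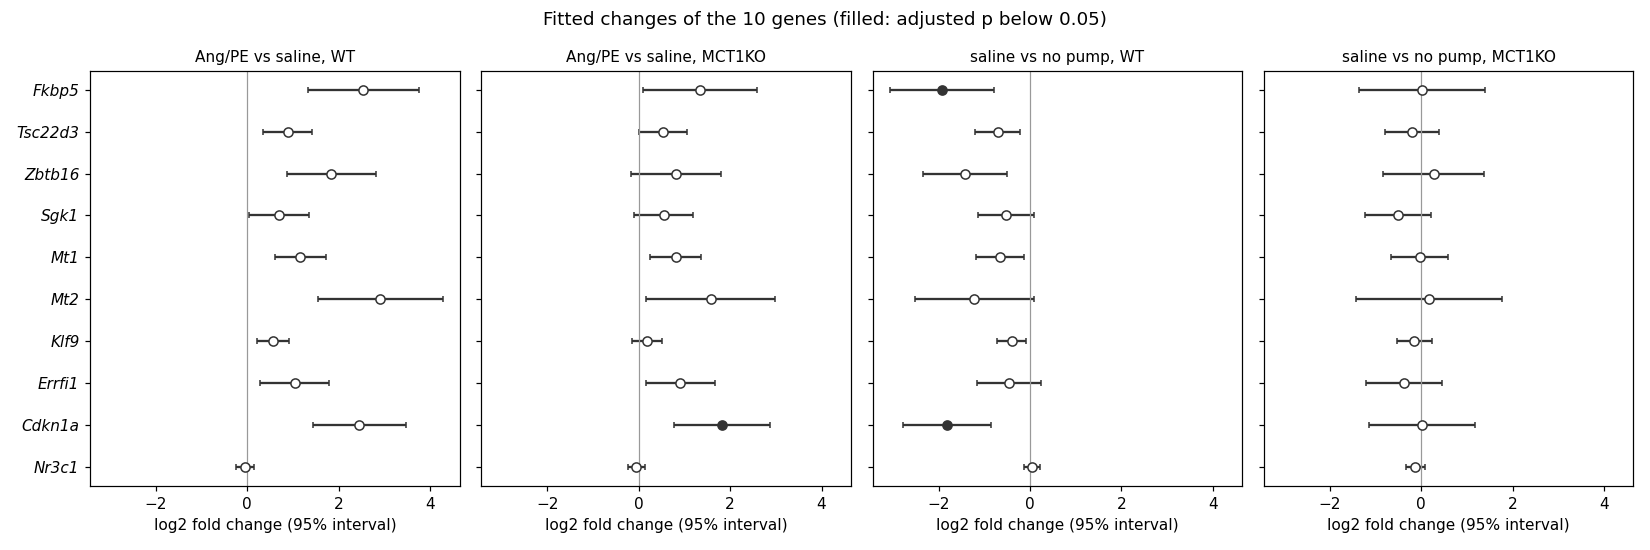
Fitted log2 fold changes with 95% intervals for the 10 genes in 4 comparisons; filled points passed an adjusted p of 0.05. Fkbp5 and Cdkn1a are filled below 0 for WT saline against no pump, Cdkn1a is filled above 0 for MCT1KO Ang/PE against saline, and Nr3c1 lies near 0 in all 4 panels.

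Between saline and no pump, 2 of the 10 were called lower in WT hearts (4.22% of all genes), 6 were lower at an unadjusted p below 0.05 (12.9%), 2 (Fkbp5 and Mt1) were lower in all saline hearts than in all without a pump (6.22%) and the median was -0.68. In MCT1KO hearts edgeR called 0 (0.00566% of all genes), 0 had an unadjusted p below 0.05 (12.1%), DESeq2 called 0 and the median was -0.08. The genotype difference in this response gave 0 calls by edgeR (0.00566% of all genes) and DESeq2 and 3 genes at an unadjusted p below 0.05 (8.86%): Fkbp5 at 1.94 (SE 0.87, adjusted p = 0.265), Zbtb16 at 1.69 (SE 0.70, adjusted p = 0.228) and Cdkn1a at 1.84 (SE 0.73, adjusted p = 0.211). With Xist as covariate these were 0.81, 0.83 and 0.86, and without the third MCT1KO saline heart Fkbp5 was at 1.18 and Zbtb16 at 0.85. These contrasts share the saline hearts with those above, so the mirrored signs are not independent.

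Against hearts without a pump, Ang/PE gave no call among the 10 by edgeR in WT (0% of all genes; 1 higher at an unadjusted p below 0.05 against 3.91%, and 0 by DESeq2) or MCT1KO hearts (0.503%; 3 higher at an unadjusted p below 0.05 against 7.01%, and DESeq2 called Cdkn1a). The medians were 0.46 and 0.66. In MCT1KO hearts Mt1, Mt2 and Cdkn1a were higher in all 5 Ang/PE hearts than in all 3 without a pump (4.49% of all genes), with Cdkn1a at a log2 difference of 1.85 (SE 0.56, adjusted p = 0.139). With Xist, held by 0 of 3 and 4 of 5 of these hearts, as covariate Cdkn1a was at 1.18, Mt1 at 0.42 against 0.78 and Mt2 at 0.95 against 1.75; with the clock score Cdkn1a was at 1.12. Without the first Ang/PE heart Mt1 was at 0.47 and Mt2 at 0.94. Genotype at matched treatment gave no call by edgeR or DESeq2 without a pump, with saline or with Ang/PE (0% of all genes in each); 4, 0 and 1 of the 10 had an unadjusted p below 0.05 (6.74% of all genes lower without a pump, 17% in either direction with saline, 2.92% lower with Ang/PE), all lower in MCT1KO. Mt1 without a pump (6.47% of all genes) and Tsc22d3 with Ang/PE (2.1%) were lower in all MCT1KO than in all WT hearts. The 1 gene with an unadjusted p below 0.05 with Ang/PE was Klf9 (-0.40, SE 0.17), which ran from -0.53 to -0.26 over the hearts left out. The 4 without a pump were Fkbp5 (-1.46, SE 0.68), Tsc22d3 (-0.62, SE 0.29), Zbtb16 (-1.15, SE 0.54) and Cdkn1a (-1.46, SE 0.57). None of the 3 MCT1KO and 2 of the 4 WT hearts there held Xist; over hearts without Xist, Fkbp5 differed by -0.28, Tsc22d3 by 0.04, Zbtb16 by -0.45 and Cdkn1a by -0.94, and with Xist as covariate by -0.84, -0.34, -0.73 and -0.94. Tsc22d3 differed by -0.27 without the third WT heart, and Cdkn1a by -2.32 without the first MCT1KO heart.

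Within groups the genes varied together from heart to heart. After the group means of log2 CPM were removed, all 36 pairs that leave out Nr3c1 correlated positively over the 25 hearts (median Pearson's r 0.576) and all 9 pairs with Nr3c1 negatively. Of the 45 pairs, 36 passed a Benjamini-Hochberg adjusted permutation p of 0.05 by r and 34 by Spearman's rho. The genes were chosen as a known responsive group with earlier results in view, so this count is a description. Pairs of other genes were not tested, so the share of all gene pairs that would pass is not known.

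Mt1 and Mt2 gave the highest value (r = 0.891, rho = 0.842, permutation p = 2e-05, adjusted p = 0.00045; r = 0.770 without the 2 hearts farthest from the median). Fkbp5 followed Zbtb16 (r = 0.878, rho = 0.847, permutation p = 0.00022, adjusted p = 0.001237; 0.806 without 2 hearts) and Klf9 (r = 0.861, rho = 0.761, permutation p = 1e-05, the smallest the permutations can give, adjusted p = 0.00045; 0.762 without 2 hearts). Fkbp5 ran against Nr3c1 (r = -0.765, rho = -0.701, permutation p = 0.00092, adjusted p = 0.003185; -0.660 without 2 hearts). Without removal of group means, that relation was -0.767 over the 13 hearts with Xist and 0.038 over the 12 without; the difference between the sets was not tested. For Mt1 and Mt2 the same values were 0.924 and 0.664. With means of group and Xist status both removed, r was -0.842 for Fkbp5 with Nr3c1 and 0.900 for Mt1 with Mt2. The pairs without Nr3c1 that did not pass by r were those of Errfi1 with Fkbp5 (r = 0.362, rho = 0.435, permutation p = 0.1721, adjusted p = 0.1844), Tsc22d3, Zbtb16 and Klf9, of Mt2 with Zbtb16 (r = 0.398, rho = 0.375, permutation p = 0.0456, adjusted p = 0.053), Sgk1 and Klf9, and of Zbtb16 with Cdkn1a.

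**Figure D3:**
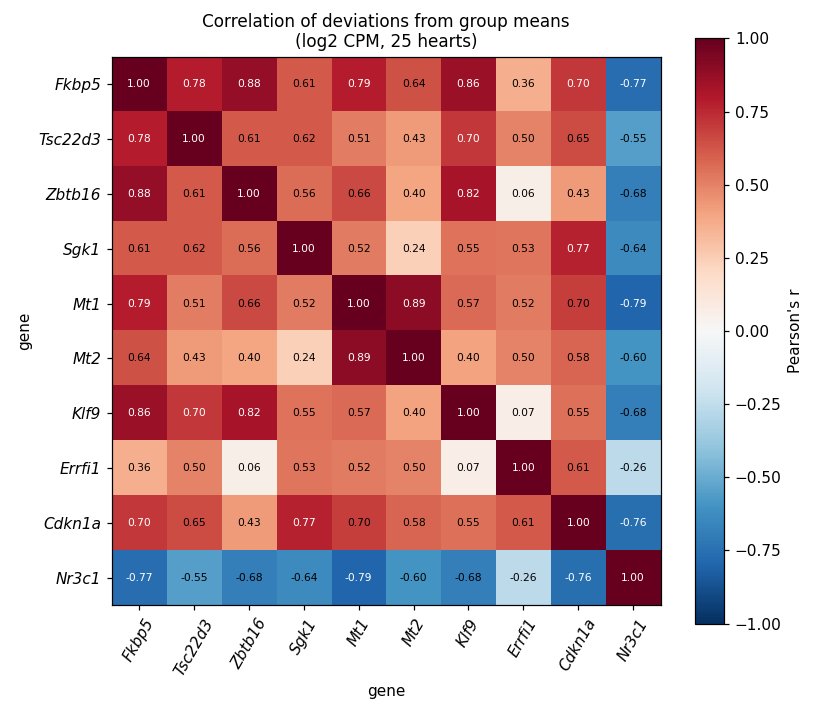
Pearson's r between the 10 genes after removal of group means of log2 CPM, over 25 hearts. The block of 9 responsive genes is positive throughout and the Nr3c1 row and column are negative throughout.

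The same hearts stood at the ends of the range for many of the genes. Leaving Nr3c1 aside, replicate 3 of MCT1KO saline was the highest of its group for 8 of 9 genes (all but Errfi1) and the lowest for Nr3c1. The atrial markers summed to 1.4996 CPM and the fat markers to 12.1 CPM in that heart, the lowest values of its group. Replicate 1 of MCT1KO Ang/PE was likewise the highest for 8 of 9 genes (all but Errfi1) and the lowest for Nr3c1, and replicate 2 of that group was the lowest for 5 and the highest for Nr3c1. Replicate 3 of the WT hearts without a pump was the highest of its group for 7 of 9 and replicate 3 of WT Ang/PE for 6 of 9, both again lowest for Nr3c1. The latter was also the lowest of its group for Tsc22d3. In the WT saline group replicate 2 was the lowest for 6 of 9 genes but at neither end for Nr3c1. Replicate 1 of that group, highest for Nr3c1, was highest for Zbtb16 and Klf9 and lowest for no gene. Replicate 3 of that group, lowest for Nr3c1, was highest only for Sgk1.

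**Figure D4:**
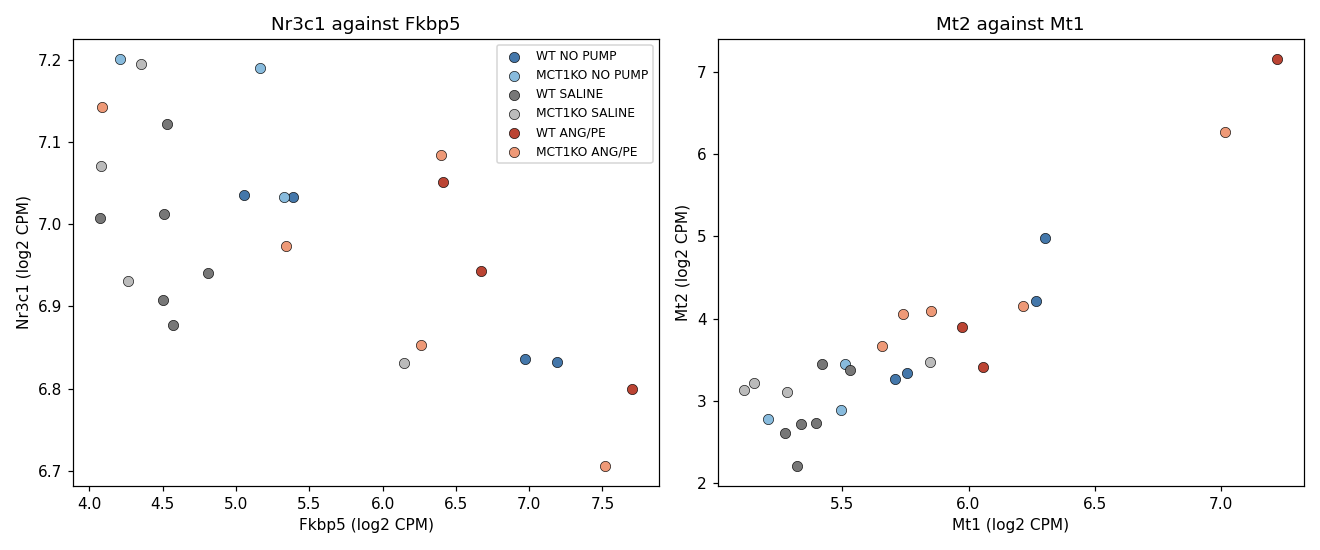
Log2 CPM of Nr3c1 against Fkbp5 and of Mt2 against Mt1 in the 25 hearts, coloured by group. The Nr3c1 axis spans a 1.41-fold range and the Fkbp5 axis a 12.5-fold range; 2 Ang/PE hearts stand at the upper right for Mt1 and Mt2.

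The pattern of each of 12805 genes (mean log2 CPM over 1) was also set against Fkbp5 and Mt2. Those closest to Fkbp5 over the 25 hearts in Pearson's r were Map3k6 (0.973), Fam107a (0.948), Fam117b (0.947), Bcl2l1 (0.946) and Klhl2 (0.940). Among those closest to Mt2 were Sphk1 (0.927), Cyth3 (0.926), Atp7a (0.905), which encodes a copper-transporting ATPase, and Tent5a (0.902). These values keep the group differences, and those for Mt2 rest partly on its 2 high hearts.

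Other genes known to be induced by glucocorticoids gave smaller shifts. Of 18 listed, 0 were called by edgeR between Ang/PE and saline in WT hearts, 9 were higher and 1 lower at an unadjusted p below 0.05 (9.47% and 9.58% of all genes), and the median log2 difference was 0.46. In MCT1KO hearts Ddit4, an inhibitor of mTORC1, rose from 27.4 ± 13.2 to 85.8 ± 44.4 CPM (log2 1.64, SE 0.43, edgeR adjusted p = 0.0354), the only 1 of the 18 called (1.75% of all genes were called higher). Hif3a, a hypoxia-inducible factor subunit, fell by 1.43 on the log2 scale between no pump and saline in WT hearts (SE 0.39, edgeR adjusted p = 0.0323), also the only 1 of 18 (4.22% of all genes were called lower). The median of the 18 there was -0.38.

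Among genes of the receptor machinery and hormone supply (11 of 12 tested), Hsp90ab1, a chaperone that holds the receptor, rose by 0.46 on the log2 scale with Ang/PE against saline in MCT1KO hearts (SE 0.12, edgeR adjusted p = 0.0294). In that comparison 1.75% of all genes were called higher and 2.7% lower. Of the metal handling genes (9 of 10 tested), the metal importers Slc39a14 rose (0.60, SE 0.15, edgeR adjusted p = 0.0245) and Slc39a8 fell (-2.02, SE 0.50, edgeR adjusted p = 0.0243) with Ang/PE against saline in MCT1KO hearts; Slc39a8 stood at 1.12 ± 0.392 against 4.65 ± 3.81 CPM. Slc39a10 fell by 0.39 on the log2 scale between no pump and saline in WT hearts. Mtf1, the factor that binds the metal elements, was not called in any comparison.

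The p53 targets did not all move with Cdkn1a. With Ang/PE against saline 0 of 10 were called by edgeR in either genotype (at an unadjusted p below 0.05, 2 were higher and 2 lower in WT, 1 higher and 1 lower in MCT1KO hearts, where 9.4% and 11% of all genes were), with medians of -0.02 and 0.06. In WT hearts with saline against no pump, Sesn1 fell by 0.58 (SE 0.17, edgeR adjusted p = 0.0462) and Trp53inp1 by 0.88 (SE 0.18, edgeR adjusted p = 0.0104) on the log2 scale, and the other 8 were not called. In that comparison 4.22% of all genes were called lower and 2.39% higher. Of the receptors that Errfi1 inhibits or their partner, Egfr fell by 0.95 (SE 0.24, edgeR adjusted p = 0.0263), while Erbb3 rose by 0.38 and Lrig1 by 0.36 in the same comparison.

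Clock genes, which set daily rhythms and are known to vary with hormone level and time of day, were called in MCT1KO hearts with Ang/PE. With Ang/PE against saline in MCT1KO hearts 6 of 10 fell (2.7% of all genes), among them Dbp (-2.19, SE 0.34, edgeR adjusted p = 0.00498) and Per3 (-1.67), and 3 rose (1.75%), among them Arntl (1.76); against no pump 4 fell (0.254%) and 1 rose (0.249%). In WT hearts 0 of 10 were called by edgeR with Ang/PE against saline. At an unadjusted p below 0.05, 3 were higher and 1 lower there (9.47% and 9.58% of all genes). The test of the genotype difference in this response called 0 of 10 (0% of all genes), so the genotypes are not shown to differ. In that test 6 of 10 were lower at an unadjusted p below 0.05 (6.05% of all genes). Collection time is not in the labels.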

How the data were processed

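RNA from 25 mouse hearts was depleted of ribosomal RNA and made into strand-specific libraries, per the labels' protocols. The authors deposited whole-number counts per Ensembl gene in 1 table; the submitters' processing notes name cutadapt 1.16, STAR 2.7.9a, featureCounts 1.6.3, DESeq2 1.42.1 and the GRCm39 build, with no role or order, and the strand setting and treatment of shared reads are not given in the sources used here. Reads shared by the near copies Mt1 and Mt2 could therefore be split or lost.

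Groups came from the sample titles. Genes that passed edgeR's filterByExpr were scaled by TMM and fitted in 1 model of the 6 groups (edgeR 4.0.16, robust quasi-likelihood, 19 residual degrees of freedom, R 4.3.3); 11 comparisons were tested two-sided, with Benjamini-Hochberg adjustment over all 17682 genes and a call at an adjusted p below 0.05. Log2 CPM used a prior count of 2, RPKM the GENCODE M21 exon length. Correlations used 100000 permutations of hearts within groups, adjusted over 45 pairs (numpy 2.4.6, scipy 1.17.1). The code was tested on simulated counts. The text names the 10 genes, genes called from the side lists (at most the 4 of smallest p) and the 5 genes most like Fkbp5 and Mt2. Some genes that this rule names are not reported here. The genes and lists were chosen with earlier results of these data known. Alternatives included DESeq2 1.42.0, RLE scaling, no filter, other samples, covariates and leaving out each heart.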

Additional observations from a re-analysis of the deposited data

Results flagged for a closer look

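In 4 of 40 checks of the highest and lowest heart in groups of 4 to 6, a heart lay apart from the rest of its group by Dixon's criterion, where chance gives about 1 in 20, or 2. The genes varied together within groups, so the 40 checks were not independent and the 4 cannot be weighed against the 2. Replicate 3 of the MCT1KO saline group was the highest of its group for Fkbp5, at 6.14 log2 CPM with the next heart at 4.36. The same heart stood at 8.67 log2 CPM for Zbtb16, with the next at 6.68, and at 6.66 log2 CPM for Sgk1, with the next at 5.50. Replicate 1 of the MCT1KO Ang/PE group stood at 6.27 log2 CPM for Mt2, with the next heart at 4.16.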

How the results depend on the processing

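Calls among the 10 genes lay close to the threshold. For WT Ang/PE against saline, where none was called, the number was 1 with RLE scaling, without mitochondrially encoded genes or with counts thinned to the smallest library, 3 with a non-robust fit, 7 with DESeq2 and 8 with only the groups compared; leaving out each heart in turn gave 0 to 3. For MCT1KO Ang/PE against saline (1 call) it was 0 with no low-count filter, with marker or clock covariates, with only the groups compared or over hearts with Xist, and 2 with DESeq2; leave-one-out fits gave 0 to 4, and 4 (Fkbp5, Zbtb16, Mt1 and Cdkn1a) came without the third saline heart. For WT saline against no pump (2 calls) it was 0 with no filter, with Xist, marker or clock covariates or over hearts without Xist, 5 with only the groups compared and 4 with DESeq2; leave-one-out fits gave 0 to 4. DESeq2 gave 1 for MCT1KO Ang/PE against no pump, where edgeR gave 0. The fits over hearts with or without Xist were chosen after seeing the data. Calls among all tested genes moved too. Leave-one-out fits aside, they ran from 0 to 945 for WT and 0 to 1224 for MCT1KO Ang/PE against saline. For WT saline against no pump they ran from 0 to 2287, and for MCT1KO Ang/PE against no pump from 0 to 403. Leave-one-out fits gave 1 to 131, 39 to 1541, 60 to 2234 and 1 to 123 in that order. Counts for the 10 genes under the alternatives are given without the share of each single fit. The cause of these changes was not tested.

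Of 65 refits of the 3 called fold changes, 38 lost the call. Of 608 refits of the 29 not called, 38 gained it, and 2 changed sign: Mt2 for WT Ang/PE against no pump was -0.45 without the third WT Ang/PE heart (-0.45 to 2.18 over the hearts left out), and Tsc22d3 for MCT1KO against WT without a pump was 0.039 over hearts without Xist. Correlated pairs past the threshold numbered 34 by rho, 26 without the 2 hearts farthest from the median and 43 with group means kept, against 36.

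The replicate numbers did not pair the hearts: same-numbered hearts correlated at a mean of -0.16 to 0.10 across comparisons. With the replicate block, 0 genes were called for MCT1KO Ang/PE against saline and 0 for WT saline against no pump, where Cdkn1a stood at 1.83 and -1.95 and Fkbp5 at -1.99 in the latter. Groups of 3 to 6 hearts limit precision more than depth, since the lowest Mt2 count was 80.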
